A study of Mus musculus with 10 samples.

Results

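The genes described here are 2 neurotrophins, the growth factors Bdnf (brain-derived neurotrophic factor) and Ntf3 (neurotrophin-3), and 6 receptors that bind mature or precursor neurotrophins or steer their traffic: Ntrk2 (TrkB), Ntrk3 (TrkC), Ngfr (the p75 receptor), Sort1 (sortilin), Sorcs1 and Sorcs3. They were chosen by symbol, 8 of the 54838 Ensembl genes counted, and each of the 8 passed the filter on low counts (CPM, the count scaled to library size, above 1 in at least 2 libraries). The data are translating ribosome affinity purification (TRAP) libraries, in which RNA on tagged ribosomes is precipitated from a chosen cell population. The 10 libraries, 5 dorsal and 5 ventral, came from hippocampus of mice of strain C57BL/6 and a single genotype, MC-TRAP (Drd2-Cre;Eef1a1LSL.eGFPL10a/+), so that Cre driven by Drd2 switched on an EGFP-tagged ribosomal protein L10a in dorsal and ventral tissue alike. The mice were males about 10 weeks old and untreated as far as the labels say, the tissue of 5 mice was pooled for each library, and hippocampi were cut into a dorsal and a ventral portion with the ventral subiculum removed. By the study's methods both portions were cut from the same mice, so that dorsal and ventral libraries share animals, but which library came from which pool of mice is not given in the sources used here. The population is enriched in dentate mossy cells (MCs), excitatory neurons of the hilus, but Drd2-Cre also marks some interneurons.

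Neurotrophins are made as precursors that are cleaved by proteases to the mature factor. Mature BDNF acts mainly through TrkB and neurotrophin-3 through TrkC, tyrosine kinases that signal through the MAPK, PI3K and phospholipase C routes, whereas precursors bind p75 together with a receptor of the VPS10P family, such as sortilin. In the hippocampus BDNF is known for its dependence on neuronal activity and its part in synaptic plasticity. The comparison asks whether ligands and receptors are carried by ribosomes at the same level in dorsal and ventral MC-enriched populations.

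Counts on genes ranged from 11138676 to 20594364 per library, so that 3 counts, the smallest level read here, correspond to 0.146 to 0.269 CPM, a floor that covers counting error alone. Over 16806 tested genes, 2636 (15.7%) were dorsal-enriched and 1655 (9.85%) ventral-enriched, which required an adjusted p under 0.05 together with a log2 ratio of group means, each with 1 CPM added, beyond 0.58 in either direction. With a correction for GC content and length the same counts were 2011 and 3028. The share of read pairs falling on no gene averaged 27.0% ± 5.09 (SD, n = 5) over the dorsal libraries and 14.4% ± 3.0 over the ventral ones, without overlap. A two-sided exact permutation test gave p = 0.00794, the smallest it can give for 5 against 5 unpaired libraries. It treats the libraries as unpaired, although the groups share mice. Mitochondrially encoded mRNA lay at 2968 ± 315 against 790 ± 307 CPM. All 8 MC markers examined were detected, with summed levels of 1861 to 2170 CPM in dorsal and 1967 to 2295 CPM in ventral libraries. By group means Gria2 was the largest part of these sums (1143 against 651 CPM), while Drd2 lay at 28.1 against 20.7 CPM. The sums are therefore not read as a measure of MC content. Of these markers 3 were dorsal-enriched and 2 ventral-enriched, among them the ventral MC marker Calb2 (65.2 against 616 CPM). Interneuron markers were also high (3268 to 4363 against 3951 to 5191 CPM summed over 8 genes, with 3 called ventral-enriched), as Gad2 alone lay at 2853 and 3174 CPM. Astrocyte markers summed to 1834 to 2088 CPM in dorsal and 660 to 1212 CPM in ventral libraries (4 of 6 dorsal-enriched, 1 ventral-enriched), oligodendrocyte markers to 2226 to 2734 and 831 to 1593 CPM (3 of 6 dorsal-enriched), and no marker of these lists was at 0 in every library. Choroid plexus markers summed to 126 to 991 CPM in dorsal and 189 to 430 CPM in ventral libraries, with 2 of 4 dorsal-enriched, Clic6 (27.7 against 10.2 CPM) and Kl (43.6 against 21.5 CPM). Ventral replicate 3 lay apart from the other 4 ventral libraries for Bdnf and Ntrk3, and values without it are given where it changes a call. In pooled tissue, fewer cells of a type and less RNA per cell cannot be told apart.

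Of the 8 genes, 1 was dorsal-enriched, Sorcs1, against 15.7% of all tested genes, and none was ventral-enriched, against 9.85%. At an adjusted p below 0.05 whatever the fold, 2 of the 8 were higher in dorsal libraries, Sorcs1 and Ntrk3, against 19% of all tested genes, and no member at that threshold was higher in ventral libraries, against 14.6%. The median log2 fold change of the members was 0.38, beside a median of -0.0044 over all tested genes. With only 8 genes it falls between Ntrk2 (0.22) and Ntrk3 (0.54). Above it lie Ntrk3 and Sorcs1, and also Ngfr (0.56) and Ntf3 (0.84), with low counts and 95% intervals that reach below 0. Both ligands, Ntrk2, Ngfr, Sort1 and Sorcs3 did not pass the test, and their intervals are given with their values below. The unadjusted p of Ntrk2 was 0.0293 (edgeR quasi-likelihood test). The share of all tested genes with an unadjusted p below 0.05 is not given here, so this value is not read as a result.

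**Figure D1:**
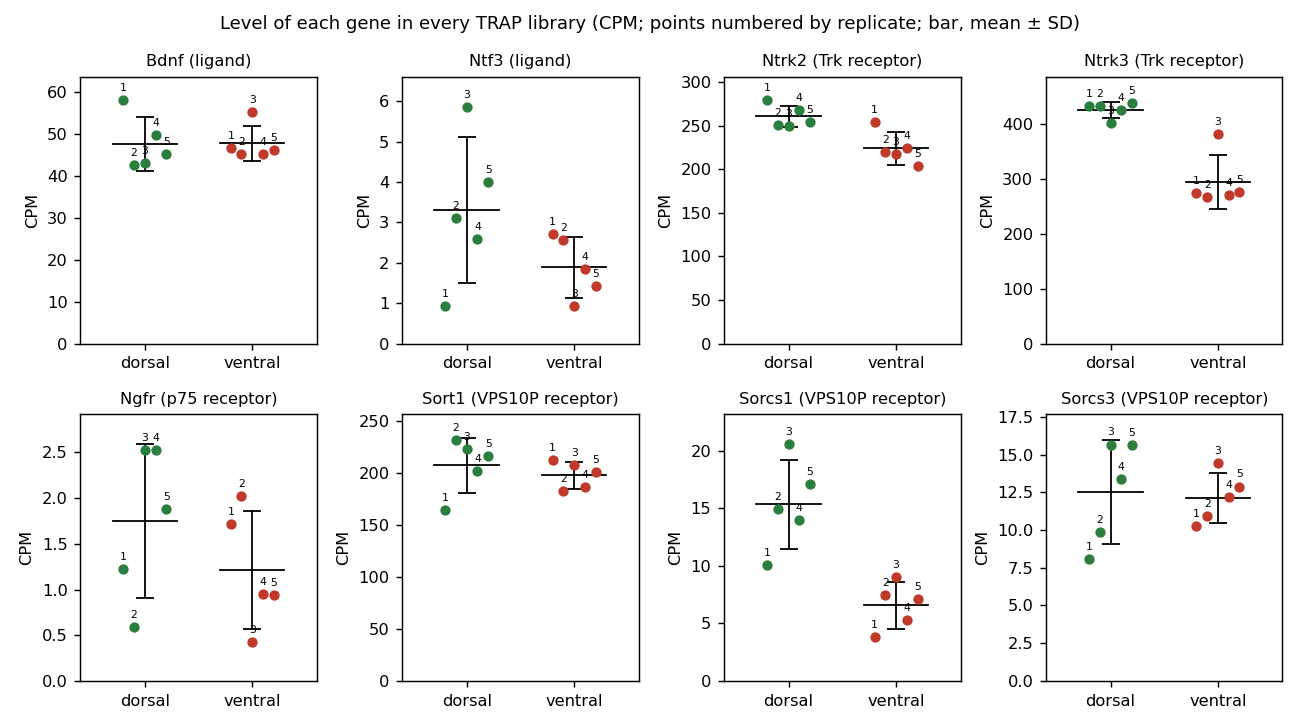
Level of each neurotrophin gene in the 5 dorsal (green) and 5 ventral (red) TRAP libraries, in CPM on a linear axis that starts at 0; points are libraries numbered by replicate, and the bar is the mean ± SD. Sorcs1 and Ntrk3 separate the groups, whereas the means of Bdnf lie at 47.7 and 47.8 CPM.

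Bdnf, the main activity-dependent neurotrophin of the forebrain, did not differ detectably between the groups. It lay at 58.0, 42.6, 43.0, 49.8 and 45.3 CPM in dorsal replicates 1 to 5 and at 46.8, 45.3, 55.3, 45.2 and 46.3 CPM in ventral replicates 1 to 5. The groups overlapped, and the highest library of each (dorsal replicate 1 and ventral replicate 3) stood above the other 4. The means were 47.7 ± 6.44 and 47.8 ± 4.25 CPM (SD, n = 5), and the log2 fold change of dorsal over ventral was -0.0046 (SE 0.12, adjusted p = 0.983, edgeR quasi-likelihood test). Its 95% interval, -0.27 to 0.26, leaves room for a dorsal level of 0.829 to 1.20 times the ventral level. With each library's trend on GC content and length removed, Bdnf, whose exons hold 40.5% GC, had a log2 fold change of -0.60 (adjusted p = 0.00237), while the median of all genes moved by -0.17, and its log2 ratio of -0.58 stayed just inside the threshold. Without ventral replicate 3 its log2 fold change was 0.046 (adjusted p = 0.799).

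The Bdnf gene (ENSMUSG00000048482, GRCm38 chromosome 2, 109674700 to 109727007, plus strand) is annotated with 11 transcripts that join alternative 5′ exons to a shared coding exon. The counts cover the gene as a whole and do not separate its promoters. The RefSeq table holds 7 windows for Bdnf starts, and 1 of them carries the core of the cAMP response element (CGTCA, read on both strands), to which CREB and related factors bind. That window, chr2:109692186-109692435 on the plus strand of GRCm38.p6, is shown because the element is known from activity-dependent transcription. The capitals mark it, 35 bases before the start. The core occurs in 17.8% of all 32851 windows of 250 bases before a start. It was in none of the windows of other members, but the members have only 13 windows in all, 7 of them of Bdnf. These are too few to set against that 17.8%.
Bdnf: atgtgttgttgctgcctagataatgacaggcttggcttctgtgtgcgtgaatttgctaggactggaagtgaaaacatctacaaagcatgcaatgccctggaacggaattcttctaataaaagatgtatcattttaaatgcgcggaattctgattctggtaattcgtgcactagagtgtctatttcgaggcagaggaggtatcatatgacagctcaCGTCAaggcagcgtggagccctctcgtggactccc
Of the exonic bases of Bdnf, 14.4% lie opposite exons of Gm45346 on the other strand, and since the sources used here do not give the strand setting of the counting, reads of the overlapping pair cannot be told apart.

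Ntf3, the ligand of TrkC, was low in both groups, with 10 to 86 counts per library. It lay at 0.941, 3.12, 5.86, 2.58 and 4.01 CPM in dorsal replicates 1 to 5 and at 2.72, 2.55, 0.929, 1.83 and 1.42 CPM in ventral replicates 1 to 5. Dorsal replicate 1 was about as low as the lowest ventral library, while the other 4 dorsal libraries reached or exceeded the middle of the ventral range. The means were 3.30 ± 1.81 and 1.89 ± 0.755 CPM (SD, n = 5), with a log2 fold change of 0.84 (SE 0.42, 95% interval -0.072 to 1.75, adjusted p = 0.141). The interval reaches from 0.951 to 3.36 times the ventral level. Dorsal Ntf3 levels were lowest in the dorsal library with the smallest share of read pairs on no gene (replicate 1, 21.8%) and highest in that with the largest (replicate 3, 33.9%). In ventral libraries the order was the reverse at its end, with the lowest Ntf3 level in the library with the largest share (replicate 3, 19.3%). With this share as a covariate the log2 fold change of Ntf3 was -0.35 (adjusted p = 0.836).

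Among the Trk receptors, Ntrk3 was higher in dorsal libraries and Ntrk2 did not pass the test. Ntrk3, which encodes the neurotrophin-3 receptor TrkC (ENSMUSG00000059146, chromosome 7, 78175959 to 78738012, minus strand), lay at 432, 432, 402, 425 and 437 CPM in dorsal replicates 1 to 5 and at 274, 267, 382, 271 and 276 CPM in ventral replicates 1 to 5. Every dorsal library was above every ventral library, a separation that 9.81% of all tested genes showed in this direction and 8.36% in the other, and ventral replicate 3 stood well above the other 4 ventral libraries. The means were 426 ± 13.9 and 294 ± 49.5 CPM (SD, n = 5), a 1.45-fold higher dorsal level (95% interval 1.24 to 1.70, log2 fold change 0.54, SE 0.11, adjusted p = 0.00231). With a log2 ratio of 0.53, Ntrk3 stayed under the fold threshold, and with GC content and length corrected for its log2 fold change was 0.33 (adjusted p = 0.0141). Without ventral replicate 3 the log2 fold change of Ntrk3 was 0.65 (adjusted p = 0.000149) and the gene was dorsal-enriched, whereas with the share of read pairs on no gene as a covariate it was 0.36 (adjusted p = 0.281).

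Ntrk2, the BDNF receptor TrkB (ENSMUSG00000055254, chromosome 13, 58806569 to 59133970, plus strand), lay at 279, 251, 250.3, 268 and 255 CPM in dorsal and at 255, 220, 218, 225 and 203 CPM in ventral replicates 1 to 5. Ventral replicate 1 reached the dorsal range, and the other 4 ventral libraries lay below every dorsal library. The means were 261 ± 12.5 and 224 ± 18.9 CPM (SD, n = 5), with a log2 fold change of 0.22 (SE 0.090, 95% interval 0.025 to 0.41) and an adjusted p of 0.0746. Over the 14 alternative settings the adjusted p ranged from 0.0192 to 0.992 and the gene was called in none. Once GC content and length were corrected for, its log2 fold change was -0.0067. Astrocytes are known to carry the truncated, kinase-free form of TrkB, and of the 6 astrocyte markers read here 4 were dorsal-enriched and 1 ventral-enriched (Aldh1l1, at 1.17 against 4.16 CPM), but the part of other cells in the Ntrk2 and Ntrk3 values was not tested. Both genes encode full-length and truncated receptors, with 7 protein-coding transcripts annotated for Ntrk2 and 6 for Ntrk3, and counts per gene do not separate them.

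Ngfr, the p75 receptor, was near the lower limit of detection, at 0.585 to 2.52 CPM in dorsal (median 1.89) and 0.422 to 2.02 CPM in ventral libraries (median 0.949), from 5 to 42 counts. The ranges overlapped almost entirely. The log2 fold change was 0.56 (SE 0.47, 95% interval -0.45 to 1.58, adjusted p = 0.377), an interval of 0.732 to 2.98 times the ventral level. In the adult forebrain p75 is known mainly from cholinergic neurons, of whose 3 markers 1 passed the filter here (Slc5a7, with up to 33 counts in a library). Their summed level was 0.786 to 2.27 CPM in dorsal and 0.591 to 2.55 CPM in ventral libraries.

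The VPS10P receptors sort proteins between the Golgi, endosomes and the cell surface, and of the 3 members of this family Sorcs1 passed the test while Sort1 and Sorcs3 did not. Sorcs1, a sorting receptor known from the traffic of neurexin and glutamate receptors (ENSMUSG00000043531, chromosome 19, 50143299 to 50678646, minus strand), lay at 10.1, 14.9, 20.6, 13.9 and 17.1 CPM in dorsal replicates 1 to 5 and at 3.83, 7.48, 9.03, 5.31 and 7.13 CPM in ventral replicates 1 to 5. The lowest dorsal library was above the highest ventral library, as in 9.81% of all tested genes. The means were 15.3 ± 3.89 and 6.56 ± 2.02 CPM (SD, n = 5), a 2.42-fold higher dorsal level (95% interval 1.67 to 3.52, log2 fold change 1.28, SE 0.25, adjusted p = 0.00212). Sorcs1 was dorsal-enriched in 13 of 14 alternative settings and in each of the 10 fits that left out a library, with log2 fold changes of 1.12 to 1.40 in the latter. Its nearest relative here, Sorcs3, also on chromosome 19 (48206025 to 48805505, plus strand), lay at 8.09, 9.87, 15.7, 13.4 and 15.6 CPM in dorsal and at 10.3, 10.9, 14.4, 12.2 and 12.9 CPM in ventral replicates 1 to 5. For Sorcs3 the ventral range fell within the dorsal range, and the log2 fold change was 0.064 (SE 0.21, 95% interval -0.38 to 0.51, adjusted p = 0.839).

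At the lowest and highest libraries of each group, the Sorcs1 value moved with the share of read pairs on no gene. In dorsal libraries Sorcs1 was lowest in replicate 1, where 21.8% of read pairs fell on no gene, and highest in replicate 3, where 33.9% did. In ventral libraries it was lowest in replicate 1 (11.6%) and highest in replicate 3 (19.3%). Between these ends the order was looser. Ventral replicate 4, with a share of 14.7%, lay at 5.31 CPM, below replicate 5 (12.7%, 7.13 CPM). Sorcs3, which did not pass the test, was lowest and highest in the same libraries of each group. With this share as a covariate the log2 fold change of Sorcs1 was 0.37 (SE 0.41, adjusted p = 0.624), and no member was called. The part of other cell types, whose markers are given above, in the Sorcs1 and Sorl1 values was not tested. Because the share itself did not overlap between dorsal and ventral libraries, the part of the share and that of the region in the Sorcs1 difference cannot be told apart. With the covariate the log2 fold change of Sorcs3 was -0.47, that of Sort1 was -0.21, that of Bdnf was 0.17, that of Ntrk2 was 0.38 and that of Ngfr was 0.94, none of them past the test.

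**Figure D2:**
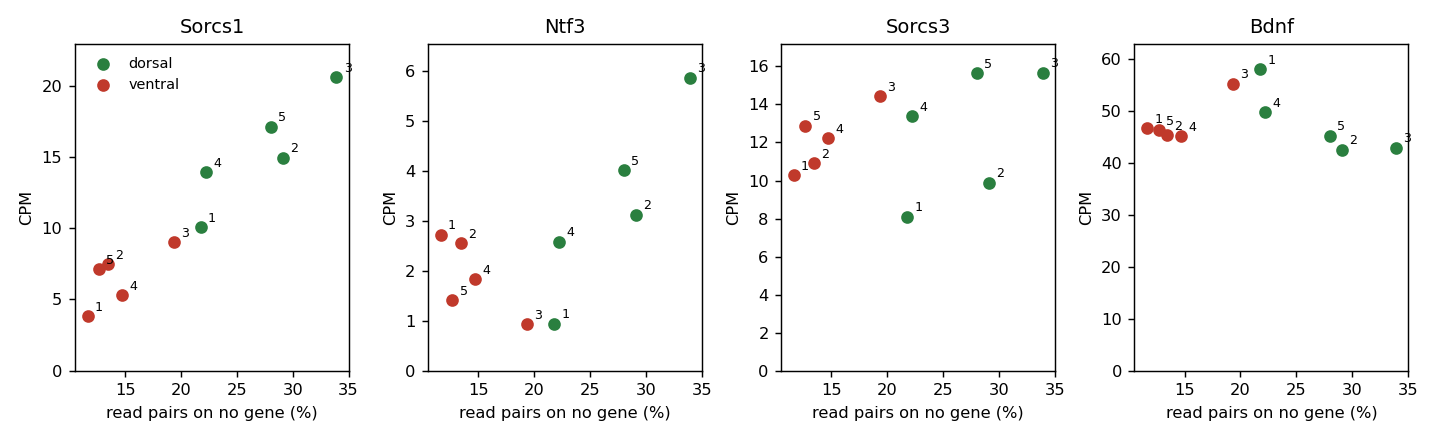
Level of 4 genes (CPM, linear axis from 0) against the percentage of read pairs that fell on no gene in each library, for 5 dorsal (green) and 5 ventral (red) libraries numbered by replicate. Sorcs1 is lowest in the library with the smallest share (ventral replicate 1, 3.83 CPM). It is highest in the library with the largest share (dorsal replicate 3, 20.6 CPM). Among dorsal libraries Bdnf lies at 58.0 CPM at the smallest share (replicate 1) and at 43.0 CPM at the largest (replicate 3). Among ventral libraries Bdnf is highest at the largest share (replicate 3, 55.3 CPM).

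Upstream of their starts the 2 Sorcs genes differ in base composition. The RefSeq windows of 250 bases are shown here because Sorcs1 passed the dorsal against ventral test and Sorcs3 did not, while the pair share a chromosome and a protein family. The Sorcs1 window (chr19:50678647-50678896, minus strand) holds 79.6% GC, more than 98.6% of all windows, with 41 CpG dinucleotides and 2 GC boxes (GGGCGG on either strand, in capitals), a motif that 32.7% of all windows carry. The Sorcs3 window (chr19:48205775-48206024, plus strand) holds 48.4% GC with 6 CpG and no such motif.
Sorcs1: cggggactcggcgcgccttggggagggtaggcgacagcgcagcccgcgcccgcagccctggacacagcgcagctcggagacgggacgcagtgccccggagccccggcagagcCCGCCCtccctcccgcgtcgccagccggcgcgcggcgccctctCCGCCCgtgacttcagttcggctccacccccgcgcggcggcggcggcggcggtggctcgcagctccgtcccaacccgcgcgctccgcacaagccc
Sorcs3: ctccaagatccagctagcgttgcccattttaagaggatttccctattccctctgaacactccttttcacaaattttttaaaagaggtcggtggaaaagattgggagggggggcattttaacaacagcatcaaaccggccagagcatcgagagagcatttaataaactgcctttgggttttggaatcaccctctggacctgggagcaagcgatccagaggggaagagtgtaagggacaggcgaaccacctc
A match to these letters is a description of the window and was not tested for any factor's binding. No window was read for Ntrk3 and Sort1.

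Sort1 encodes sortilin, the co-receptor of p75 for precursor neurotrophins and a carrier of proBDNF to the regulated secretory route. It lay at 164 to 232 CPM in dorsal (median 216) and 182 to 212 CPM in ventral libraries (median 201), and the ventral range fell within the dorsal range. The means of Sort1 were 207 ± 26.5 and 198 ± 13.0 CPM (SD, n = 5), with a log2 fold change of 0.068 (SE 0.11, adjusted p = 0.648). The 95% interval bounds the dorsal level between 0.896 and 1.23 times the ventral level.

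Of 3 related genes read beside the set, 2 were tested. Sorl1 (SorLA), a VPS10P receptor that also carries TrkB and the amyloid precursor protein, was dorsal-enriched, at 158 ± 7.48 against 99.4 ± 11.8 CPM (SD, n = 5, log2 fold change 0.67, SE 0.10, adjusted p = 0.000474), and its groups did not overlap. Once GC content and length were corrected for, its log2 fold change was 0.55, past the adjusted p but under the fold threshold, and with the share of read pairs on no gene as a covariate it was 0.58 (adjusted p = 0.0992). Sorcs2 lay at 11.6 and 11.3 CPM (log2 fold change 0.033, adjusted p = 0.905). Ntf5, a further ligand of TrkB, had at most 2 counts in any library and was not tested.

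**Figure D3:**
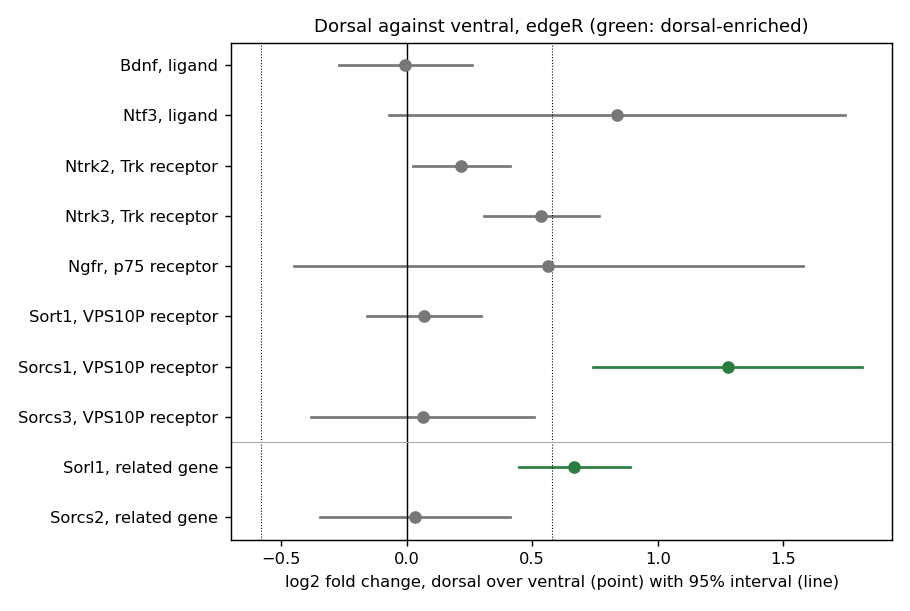
Log2 fold change of dorsal over ventral libraries (point) with its 95% interval (line) from edgeR for the 8 members and, under the grey line, 2 related genes; dotted lines mark ±0.58. Sorcs1 (1.28) and Sorl1 (0.67) are dorsal-enriched (green), and the interval of Bdnf is centred on 0.

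To compare ligands with receptors, levels were divided by exonic length, giving CPM per kb. In dorsal libraries the order of these levels was Sort1 (27.4 ± 3.50), Ntrk3 (14.1 ± 0.462), Ntrk2 (13.5 ± 0.650), Bdnf (7.68 ± 1.04), Ntf3 (1.93 ± 1.06), Sorcs1 (1.82 ± 0.461), Sorcs3 (1.76 ± 0.481) and Ngfr (0.507 ± 0.245). In ventral libraries it was Sort1 (26.1 ± 1.72), Ntrk2 (11.6 ± 0.979), Ntrk3 (9.74 ± 1.64), Bdnf (7.69 ± 0.683), Sorcs3 (1.70 ± 0.231), Ntf3 (1.10 ± 0.440), Sorcs1 (0.777 ± 0.239) and Ngfr (0.352 ± 0.188), each in CPM per kb with SD, n = 5. Sort1 stood above its neighbour in both groups without overlap. Ntrk2 and Ntrk3 overlapped in both groups, and Bdnf stood above the 4 genes that follow it without overlap. Neighbours among Ntf3, Sorcs1 and Sorcs3 overlapped in both groups, and ventral Sorcs1 overlapped with Ngfr. Ntrk3 and Bdnf overlapped in ventral libraries, though Ntrk3 was the higher in 5 of 5 libraries. Among all tested genes the mean level per kb of Sort1 lay at percentile 89.8, that of Bdnf at percentile 70.3 and that of Ngfr at percentile 13.8. With the longest transcript in place of the exon union, the levels of Bdnf, Ntrk2 and Ntrk3 rose to 11.2, 27.7 and 18.3 CPM per kb. The order of the means over all 10 libraries and that within ventral libraries were then the same, but within dorsal libraries Ntrk2 (29.8) stood above Ntrk3 (21.6) and Sorcs3 (2.22) above Sorcs1 (2.12). On that length Sort1 and Ntrk2 overlapped in both groups, while Ntrk2 and Ntrk3 did not, nor did Ntrk3 and Bdnf.

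**Figure D4:**
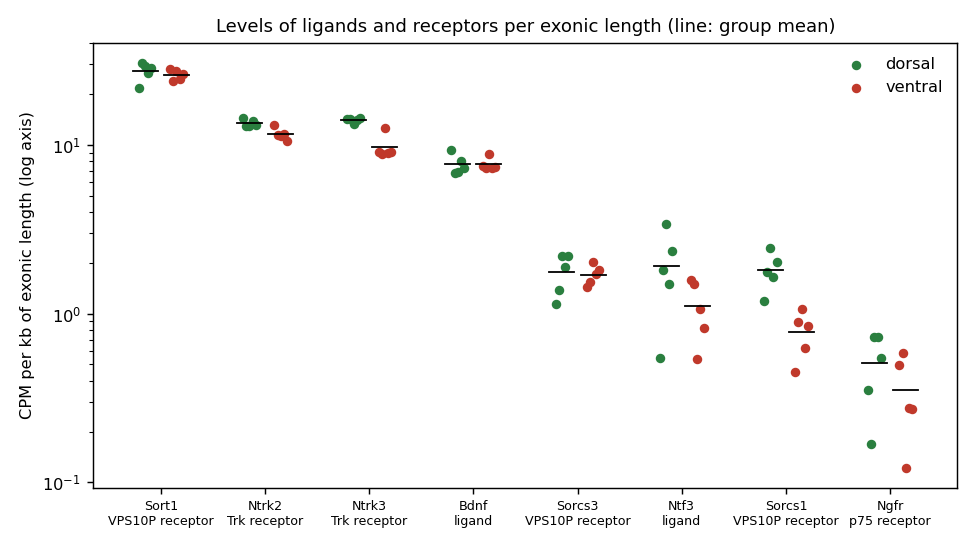
CPM per kb of exonic length (log axis) of each member in 5 dorsal (green) and 5 ventral (red) libraries, with a line at each group mean, ordered by the mean over all libraries. Sort1 is highest in both groups, at 27.4 and 26.1 CPM per kb, and Ngfr is lowest, at 0.507 and 0.352.

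The balance of ligands and receptors, taken as ratios of levels per kb, is a description of values already given and was not tested. The summed ligands came to 0.163 ± 0.0163 (SD, n = 5) of the summed receptors in dorsal libraries and to 0.175 ± 0.00643 of them in ventral libraries, with overlap. Bdnf over Ntrk2 was 0.566 ± 0.0481 and 0.666 ± 0.0837, with overlap (0.525 to 0.645 against 0.570 to 0.787). Ntf3 over Ntrk3 was 0.138 ± 0.0800 and 0.119 ± 0.0551, also with overlap. Ntrk3 over Ntrk2 was 1.05 ± 0.0504 in dorsal libraries and 0.844 ± 0.167 in ventral libraries, where it ranged up to 1.12 in a single library. Sorcs1 over Sorcs3 was 1.05 ± 0.158 in dorsal and 0.451 ± 0.110 in ventral libraries, without overlap (0.879 to 1.28 against 0.315 to 0.579). Sort1 made up 88.6% ± 1.90 and 91.3% ± 1.42 of the summed level of Sort1, Sorcs1 and Sorcs3. Ratios between genes depend on the length used: with the longest transcript Bdnf over Ntrk2 was 0.374 and 0.440, Ntrk3 over Ntrk2 was 0.726 and 0.586, below 1 in both groups, and Sorcs1 over Sorcs3 was 0.966 and 0.416, again without overlap between groups.

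Around the members, 125 genes of neurotrophin processing, signalling and response were read in 8 lists, of which 119 were tested. Of these, 16 (13.4%) were dorsal-enriched, against 15.7% of all tested genes, and 9 (7.56%) ventral-enriched, against 9.85%. With a correction for GC content and length the ventral count was 19, and with the share of read pairs on no gene as a covariate the counts were 9 dorsal and 4 ventral. The median log2 fold change was -0.0041 over the 119 genes and -0.0044 over all tested genes.

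Genes of precursor processing and release were read first. Of 10 tested, 3 (30%) were dorsal-enriched and 1 (10%) was ventral-enriched, against 15.7% and 9.85% of all tested genes, and the median log2 change of the list was 0.25. Furin, the protease that cleaves precursors in the Golgi, lay at 15.0 against 7.69 CPM (log2 fold change 1.0, SE 0.18, adjusted p = 0.00131). Plat, tissue plasminogen activator, which starts the plasmin cascade that cleaves proBDNF outside the cell, lay at 8.84 against 4.25 CPM (log2 fold change 0.99, SE 0.26, adjusted p = 0.0107). Pcsk7, another convertase, lay at 5.56 against 3.04 CPM with overlap (log2 fold change 0.98, adjusted p = 0.0340), and held its call in 4 of 10 fits that left out a library. Serpini1 (neuroserpin), the inhibitor of tissue plasminogen activator, was ventral-enriched, at 209 against 324 CPM (log2 fold change -0.63, SE 0.12, adjusted p = 0.00167). Furin, Plat and Serpini1 each kept their call in 13 of 14 alternative settings and in 10 of 10 fits that left out a library. The exception was the share of read pairs on no gene as a covariate, with log2 fold changes of 0.90 for Furin, 0.66 for Plat and -0.37 for Serpini1. Corrected for GC content and length, Serpini1 was at -1.66 (adjusted p = 9.96e-06).

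Downstream of the receptors, among 19 Trk adaptors and docking proteins none was dorsal-enriched and 2 (10.5%) were ventral-enriched, against 15.7% and 9.85% of all tested genes. Sqstm1 (p62), an adaptor that also serves autophagy, lay at 643 ± 78.0 against 1949 ± 138 CPM (SD, n = 5, log2 fold change -1.60, SE 0.097, adjusted p = 8.28e-07), and was ventral-enriched in 14 of 14 alternative settings. Of the exonic bases of Sqstm1, 17.3% are shared with exons of Mrnip, and the limit given for Bdnf holds here too. Shc2, an adaptor of Trk receptors, lay at 27.6 against 45.2 CPM (log2 fold change -0.71, SE 0.16, adjusted p = 0.00449), and was not called with the share of read pairs on no gene as a covariate (-1.02, adjusted p = 0.0626). Of 26 Ras-MAPK and PI3K-Akt genes none was called in either direction by edgeR's quasi-likelihood test at both thresholds. At an adjusted p below 0.05 alone, 4 of the 26 (15.4%) were higher in ventral libraries, against 14.6% of all tested genes, and none was higher in dorsal libraries, against 19%. The median of the list was -0.11.

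Of 14 tested partners and proteases of p75, 3 (21.4%) were dorsal-enriched and 1 (7.14%) was ventral-enriched, against 15.7% and 9.85% of all tested genes, and the median was 0.23. Adam17, the sheddase that cuts p75 and other receptors at the membrane, lay at 16.9 ± 3.31 against 5.28 ± 2.0 CPM (SD, n = 5, log2 fold change 1.72, SE 0.24, adjusted p = 0.000228), and kept this call in 14 of 14 alternative settings and 10 of 10 fits that left out a library. Ripk2 (0.88, adjusted p = 0.0351) and Zfp110 (0.68, adjusted p = 0.0475), both of which bind the intracellular part of p75, were dorsal-enriched with overlapping groups, but held in 3 and 2 of the 10 fits that left out a library. Ndn (necdin), which binds p75 and is imprinted, lay at 144 against 217 CPM (log2 fold change -0.60, adjusted p = 0.000709) and held in 6 of those 10 fits. Among 15 genes of receptor trafficking and turnover, Slitrk5 (0.73, adjusted p = 0.00626), a TrkB partner in recycling, and Cblb (0.62, adjusted p = 0.00197), a ubiquitin ligase, were dorsal-enriched. Cblb fell under the fold threshold without dorsal replicate 1 (0.58) and without ventral replicate 3 (0.55). Hap1, which links BDNF vesicles and TrkB to motor proteins (16.4 against 31.7 CPM, log2 fold change -0.96, adjusted p = 0.000228), and Rab11a of the recycling endosome (-0.60, adjusted p = 0.00458, held in 6 of 10 fits that left out a library) were ventral-enriched. In this list 2 genes (13.3%) were thus called in each direction, against 15.7% and 9.85% of all tested genes, and its median was -0.28. With the share of read pairs on no gene as a covariate, Ripk2, Zfp110, Ndn, Slitrk5, Hap1 and Rab11a were not called. Corrected for GC content and length, Ripk2 (0.61), Zfp110 (0.52) and Cblb (0.45) were not called either, and Rab11a was at -1.06.

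**Figure D5:**
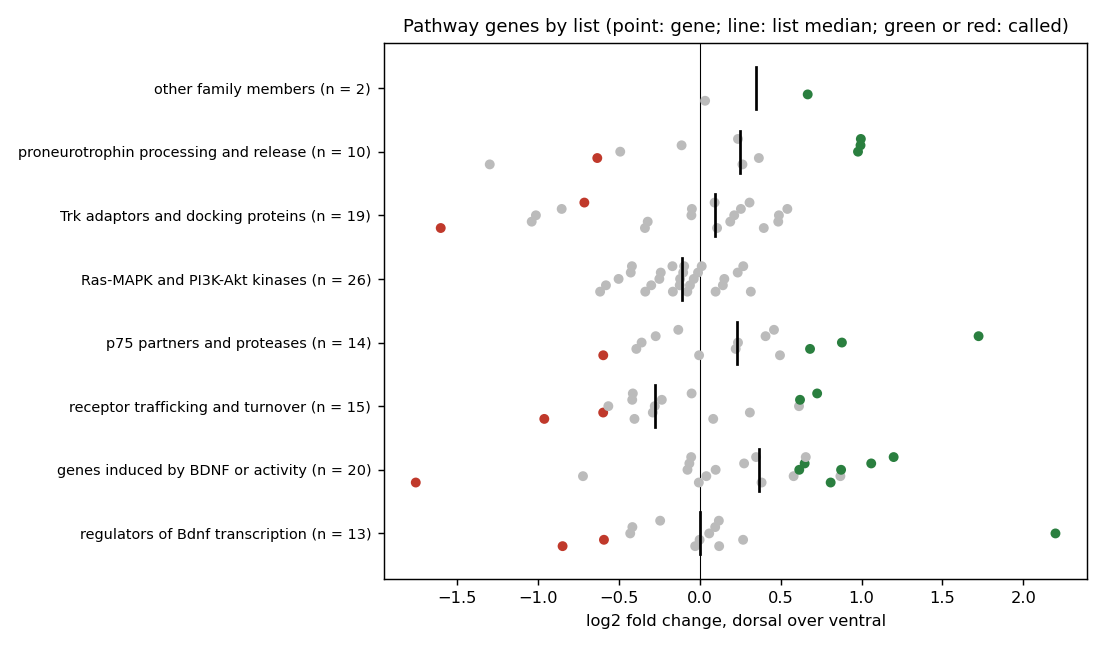
Log2 fold change of dorsal over ventral libraries for each tested gene of the 8 pathway lists (points; n, genes tested), with a line at each list's median; dorsal-enriched genes are green, ventral-enriched red and others grey. Genes induced by BDNF or activity have 6 green points and a median of 0.37, with Fos as the red point at -1.76, and the Ras-MAPK and PI3K-Akt list has none coloured.

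Genes that BDNF or neuronal activity is known to induce were read as a list of 20, although most respond to many stimuli. Of them 6 (30%) were dorsal-enriched, against 15.7% of all tested genes, and 1 (5%) was ventral-enriched, against 9.85%; the list had a median of 0.37. Inhba, the activin subunit, lay at 28.5 ± 4.60 against 12.8 ± 5.25 CPM (SD, n = 5, log2 fold change 1.20, SE 0.23, adjusted p = 0.00197). Egr4, a zinc-finger factor, lay at 10.2 against 5.08 CPM (1.06, adjusted p = 0.0178, and 0.0512 without ventral replicate 5). Dusp5, a phosphatase of nuclear ERK, lay at 9.29 against 5.06 CPM (0.87, adjusted p = 0.0286), and held in 5 of 10 fits that left out a library. Of the exonic bases of Dusp5, 22.1% are shared with exons of AC137853.2, with the same limit as for Bdnf. The other dorsal-enriched genes of the list, named after their values were seen, were Arc (0.81, adjusted p = 0.000692), Dusp6 (0.65, adjusted p = 0.00821) and Homer1 (0.62, adjusted p = 0.000986). Fos went the other way, at 4.50 ± 1.61 against 14.7 ± 4.14 CPM (SD, n = 5, log2 fold change -1.76, SE 0.28, adjusted p = 0.000612), and its groups did not overlap. With the share of read pairs on no gene as a covariate, Inhba (1.26), Egr4 (0.96) and Fos (-1.32) were not called, whereas Dusp5 was, at 1.96 (adjusted p = 0.0166).

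Among 13 regulators of Bdnf transcription, 1 (7.69%) was dorsal-enriched and 2 (15.4%) ventral-enriched, against 15.7% and 9.85% of all tested genes, while Bdnf itself did not pass the test. Mef2c, an activity-regulated factor, lay at 202 ± 29.0 against 362 ± 59.9 CPM (SD, n = 5, log2 fold change -0.85, SE 0.13, adjusted p = 0.000421). Corrected for GC content and length Mef2c was at -1.28, and with the share of read pairs on no gene as a covariate it was at -0.51 (adjusted p = 0.223). Crem, which binds the same element as CREB, lay at 27.7 against 42.5 CPM (-0.59, adjusted p = 0.0408), with ventral replicate 3 at 69.9 CPM, and at -0.36 (adjusted p = 0.0624) without it. Crem held its call in 3 of 10 fits that left out a library, and with the same covariate it was at -1.44 (adjusted p = 0.0170). Nfatc4 was dorsal-enriched at 1.13 against 0.211 CPM, a ventral level around the floor of 3 counts, so that the size of its change is not read here.

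The genes whose library-to-library deviations within groups were most like those of Bdnf, over 10 libraries and among 8761 genes of at least 10 CPM, were Bcl11a (Pearson r = 0.97), Hipk1 (0.97) and Cdadc1 (0.97). For Ntrk2 they were Pcdh9 (0.95), Prps1 (0.95) and Crbn (0.95). These values are the highest of many, share the same libraries and their depth, and are given as a description without a test.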

How the data were processed

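The authors aligned paired-end reads to GRCm38 with STAR 2.5.2b and assigned pairs to Ensembl genes with HTSeq 0.7.2 (submitters' processing notes), after amplification of the precipitated RNA with the Ovation kit. The annotation release and strand setting are not given in the sources used here. Each deposited file lists raw counts as whole numbers, not normalized by the authors. The 2 log lines at the top of each file were skipped, and HTSeq's summary rows were kept out of library sizes. Read pairs on no gene, 11.6% to 33.9% of each library's assigned, ambiguous and unassigned pairs, were used as a library measure. GENCODE M21 matched 54809 of 54838 identifiers and supplied symbols, coordinates, exon unions and GC content. The GC content of a gene was taken over all its transcripts together, so that exons they share count more than once. Promoter windows came from RefSeq (GRCm38.p6).

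The fit used edgeR 4.0.16 in R 4.3.3: CPM above 1 in at least 2 libraries, TMM, the quasi-likelihood test of dorsal against ventral libraries and Benjamini-Hochberg adjustment over 16806 genes. The log2 ratio for the threshold used a pseudocount of 1 CPM. Standard errors are the log2 fold change over the square root of F, and 95% intervals use the test's degrees of freedom. The scripts were tested on simulated data. Single library measures were compared by two-sided exact permutation tests that treat the libraries as unpaired.

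A replicate is a pool of 5 mice, and by the study's methods dorsal and ventral portions came from the same mice, so the groups are not independent animals. No duplicate was found, as the chi-square per degree of freedom between libraries of a group ran from 4.36 to 45.1 over 20 pairs. The members and lists were chosen with earlier results of these data known. Named were all members and, per list and direction, at most 3 called genes with the largest fold change. Arc, Dusp6 and Homer1 were named beyond this rule, after their values were seen. The likeness genes were the 3 with the highest r. Alternatives were other normalizations (DESeq2's size factors, upper-quartile, total counts), no filter and a stricter one (5 libraries), DESeq2 1.42.0, the likelihood-ratio test, the threshold on edgeR's own fold change, protein-coding genes, the replicate number as a block, removal of GC and length trends (mgcv 1.9.3), the share of read pairs on no gene as a covariate, each library left out and, chosen after seeing the data, the quasi-likelihood dispersions of edgeR 3. Some genes of the related family are not reported here. With the covariate, edgeR's fold change set the threshold.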

Additional observations from a re-analysis of the deposited data

Results flagged for a closer look

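Among 68 groups of 5 libraries examined for a library far from the other 4, 7 had one, and chance flags about 1 in 20. Ventral replicate 3 accounted for 3 of them: Bdnf at 55.3 CPM (others 45.2 to 46.8), Ntrk3 at 382 CPM (others 267 to 276) and Crem at 69.9 CPM (others 31.7 to 39.1). Sorl1 reached 171 CPM in dorsal replicate 3 (others 153 to 158). Ndn lay at 172 CPM in dorsal replicate 1 (others 134 to 143), Fos at 7.57 CPM in ventral replicate 2 (others 15.1 to 18.2), and mitochondrially encoded mRNA at 3524 CPM in dorsal replicate 2 (others 2773 to 2916). Sorl1, Ndn, Fos and Ntrk3 kept the direction of their difference whichever library was left out.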

How the results depend on the processing

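The count of dorsal-enriched members, 1, was the same in 13 of 14 alternative settings; with the share of read pairs on no gene as a covariate it was 0, and leaving out a library gave 1 to 2. With that covariate the pathway counts were 9 dorsal and 4 ventral, and the counts over all genes 967 and 394. With GC and length corrected, the ventral pathway count was 19 and the ventral count over all genes 3028, and with the replicate block added 19 and 3090. Protein-coding genes alone gave 1647 dorsal-enriched genes among 13549 tested. No ventral-enriched member appeared under any setting tried. With GC and length corrected, however, Bdnf was at -0.596 (adjusted p = 0.00237), and with the block added at -0.597 (adjusted p = 0.00594). Its log2 ratio of -0.578 stayed just inside the threshold in both. The cause of these shifts was not tested.

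Signs of members near 0 turned. Bdnf was at 0.024 with DESeq2's size factors, 0.035 with upper-quartile factors, 0.0076 with total counts, 0.018 with the stricter filter, 0.026 with DESeq2, 0.021 with protein-coding genes and 0.17 with the covariate, and between -0.073 and 0.046 with a library left out. Ntrk2 was at -0.0067 with GC and length corrected and -0.0013 with the block added. Under these 2 settings and the covariate, Sort1 was at -0.0038, -0.012 and -0.21 and Sorcs3 at -0.045, -0.071 and -0.47, and Sorcs3 ran from -0.022 to 0.17 with a library left out. With the covariate, Ntf3 was at -0.35 and Sorcs2 at -0.31, and Sorcs2 ran from -0.027 to 0.091 with a library left out. None of these passed the test. The median of all genes moved by 0.11 without a filter.

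Same-numbered libraries did not deviate together (correlations of -0.032 to 0.069, and 3 of 10 libraries correlated best with their own number), and the sources do not say that a number marks a shared pool of mice, so the numbers were not taken as pairs although the groups share mice. With the replicate block, Sorcs1 was at 1.24 (adjusted p = 0.00172) and Ntrk3 at 0.55 (adjusted p = 0.00658), the block changed no member's call, and the counts over all genes were 2656 and 1674. The depth limits Ntf3 (10 to 86 counts) and Ngfr (5 to 42 counts) most.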
